A study of Mus musculus with 6 samples.

Results

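The squalene to cholesterol enzymes are the 9 genes Fdft1, Sqle, Lss, Cyp51, Msmo1, Nsdhl, Ebp, Sc5d and Dhcr7, taken by gene symbol from an expression table of 26264 genes. All 9 were found and all 9 passed the filter of a mean of at least 1 TPM (a share of transcripts corrected for gene length), as did 13739 genes in all. Their RNA was measured in endothelial cells sorted from the liver of C57BL6 mice. Mice fed PLX5622 at 1200 ppm for 1 month gave 3 libraries, and mice fed control diet for as long gave the other 3. PLX5622 inhibits the colony stimulating factor 1 receptor (CSF1R), on which most tissue macrophages depend, and the series asked whether the drug alters cholesterol metabolism in endothelium outside the central nervous system. Cells from a single liver lobe were sorted on CD31, and polyadenylated RNA was sequenced without keeping the strand. The labels call the libraries biological replicates of each diet, give neither age nor sex, and do not say whether a library came from a single mouse, so the p-values measure only the spread between these libraries.

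Cholesterol is built in the endoplasmic reticulum from acetyl-CoA. The mevalonate arm of the pathway ends in farnesyl pyrophosphate. The enzymes described here join a pair of these molecules to squalene, close it into the first sterol, lanosterol, and then remove methyl groups and shift and reduce double bonds until cholesterol is formed. Transcription of most of these genes is driven by the sterol-sensing factor SREBP2, which binds beside the factors NF-Y and Sp1 at many of its targets. In the liver most cholesterol is made by hepatocytes.

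Promoter sequences were at hand for 7 of the 9 genes, all except Fdft1 and Sqle, in 9 windows because Dhcr7 has 3 annotated starts. The 4 shown belong to Sc5d and Lss, which were among the 3 members with the largest differences between diets, to Cyp51, which had the widest ratio of highest to lowest library, and to Ebp, the member with the highest level. Each runs 5′ to 3′ over the 250 bases before the start site on the gene's own strand, from RefSeq on build GRCm38.p6, which is not the build named for the reads. Capitals mark the box CCAAT (the letters that NF-Y recognizes) and the GC box GGGCGG (those that Sp1 recognizes), each also as its reverse complement.
Sc5d promoter, chr9:42264301-42264550, minus strand: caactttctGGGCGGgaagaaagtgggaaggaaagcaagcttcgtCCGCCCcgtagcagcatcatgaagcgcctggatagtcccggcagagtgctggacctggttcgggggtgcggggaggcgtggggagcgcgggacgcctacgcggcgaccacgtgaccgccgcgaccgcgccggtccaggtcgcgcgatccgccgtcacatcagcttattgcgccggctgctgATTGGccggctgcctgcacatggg
Lss promoter, chr10:76531355-76531604, plus strand: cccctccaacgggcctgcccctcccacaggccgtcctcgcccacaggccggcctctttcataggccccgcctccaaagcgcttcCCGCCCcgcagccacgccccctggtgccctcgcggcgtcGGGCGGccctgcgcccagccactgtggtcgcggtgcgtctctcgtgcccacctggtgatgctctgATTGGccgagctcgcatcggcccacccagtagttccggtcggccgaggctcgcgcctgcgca
Cyp51 promoter, chr5:4104698-4104947, minus strand: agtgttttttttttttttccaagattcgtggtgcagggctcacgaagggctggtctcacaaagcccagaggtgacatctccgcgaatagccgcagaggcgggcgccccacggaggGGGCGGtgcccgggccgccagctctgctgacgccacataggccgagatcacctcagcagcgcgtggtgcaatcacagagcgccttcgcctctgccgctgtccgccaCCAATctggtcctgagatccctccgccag
Ebp promoter, chrX:8193513-8193762, minus strand: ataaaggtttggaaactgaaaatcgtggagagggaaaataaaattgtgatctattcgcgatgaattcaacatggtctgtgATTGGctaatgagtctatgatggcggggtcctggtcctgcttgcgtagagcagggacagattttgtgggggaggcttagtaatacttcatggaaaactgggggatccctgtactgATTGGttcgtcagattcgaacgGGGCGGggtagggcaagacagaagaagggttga
On either strand, CCAAT was present in 7 of the 9 windows and in at least 1 window of each of the 7 genes, against 33.8% of all 32851 promoter windows and 35.1% of the 13444 windows of tested genes. GGGCGG was present in 8 of the 9 windows and again in each of the 7 genes, against 32.7% of all windows and 55.8% of those of tested genes. Both motifs stood together in 7 of the 9 windows, against 11.0% of all windows and 19.5% of those of tested genes. The CCAAT box nearest the start began 24 bases before it in Sc5d, 29 in Cyp51, 55 in Ebp and 62 in Lss. The stricter sterol response motif TCACNCCAC was in 0 of the 9 windows and in 1.05% of all windows, and the E-box CACGTG in 2 of 9 and in 6.02%. In these windows no CCAAT overlapped a GGGCGG. A match describes the letters only and is no evidence of binding.

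Reads worked out from the TPM values came to 16636652 to 22157594 per PLX5622 library and to 14517947 to 32732157 per control library. A member had between 67 reads (Lss) and 986 reads (Sc5d) in a library, so counting alone gives an error of at least 12.2% at the lowest and 3.18% at the highest. All 10 endothelial markers were detected in all 6 libraries, and Pecam1, the gene of CD31, averaged 1712 ± 148 TPM on PLX5622 and 1682 ± 259 TPM on control (SD, n = 3 each). The 10 summed to 9624, 11833 and 12459 TPM in PLX5622 replicates 1 to 3 and to 9585, 13639 and 14012 TPM in control replicates 1 to 3. Of the 10, 7 had a log2 fold change below 0, where 53.8% of all tested genes did. An unadjusted limma p under 0.05 was seen for 1 of the 10, higher on PLX5622, against 1.64% of all tested genes. Markers of other liver cells were detected as well. The 12 hepatocyte markers summed to 1359, 1504 and 2774 TPM in PLX5622 replicates 1 to 3 and to 4867, 2334 and 2083 TPM in control replicates 1 to 3, with 0 of the 12 at 0 in any library, and all 12 had a log2 fold change below 0, as had 53.8% of all tested genes. Of the 12, 1 (Alb) had an unadjusted limma p under 0.05 and was lower on PLX5622, where 1.70% of all tested genes did so. The 12 Kupffer cell and macrophage markers summed to 74.7, 127 and 103 TPM on PLX5622 and to 209, 138 and 234 TPM on control, with 0 at 0 and all 12 below 0, of which 6 had an unadjusted limma p under 0.05, against the same 1.70%. Csf1r, which encodes the target of PLX5622, averaged 2.87 ± 1.49 TPM on PLX5622 and 7.27 ± 1.35 TPM on control (SD, n = 3 each; limma adjusted p = 0.99998). In bulk RNA, fewer cells of a type and less RNA per cell cannot be told apart. Red cell globin genes Hba-a1, Hbb-bs and Hbb-bt were listed at 0 in all 6 libraries, but Alas2, also a red cell marker, was at 0 in 0 libraries and reached 7.80 TPM. Krt7, a bile duct keratin, was listed at 0 in 2 libraries. The other bile duct markers Krt19, Epcam, Sox9 and Spp1 were at 0 in 0 libraries and reached 10.9, 2.18, 1.54 and 69.9 TPM.

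All 9 enzymes were expressed in every library, and for none of them did the diets differ at a limma adjusted p of 0.05. Of the 9, 8 had a log2 fold change below 0, where 53.8% of all tested genes did, but for Fdft1, Msmo1, Nsdhl and Dhcr7 it lay between -0.03 and -0.0016. The number below 0 was 4 of 9 with library weights, 5 of 9 with a hepatocyte marker level as covariate and 6 of 9 with median-of-ratios scaling. With quantile normalization it was 7 of 9, and with a filter at 5 TPM it was 7 of 8. It stayed at 8 of 9 under every other alternative with all libraries. In all 9 the ranges of the diets overlapped, while 8.68% of all tested genes did not (4.50% lower and 4.18% higher on PLX5622). With limma, 0 of the 9 passed an adjusted p of 0.05 over all genes, against 0% of all tested genes, and 0 had an unadjusted p under 0.05, against 3.34% (1.70% lower and 1.64% higher on PLX5622). The adjusted p was 0.99998 for each of the 9. Over all tested genes limma had 0 past the adjusted threshold and 459 at an unadjusted p under 0.05, and voom on the recovered reads had 0 and 407. The median log2 fold change of the 9 was -0.03, beside -0.02 over all tested genes. The lowest values belonged to Sc5d and Sqle, and the remaining 7 lay between -0.25 and 0.02. Fold changes divide PLX5622 by control after adding 1 TPM to each value, so that those of weakly expressed genes such as Lss come out too small.

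**Figure D1:**
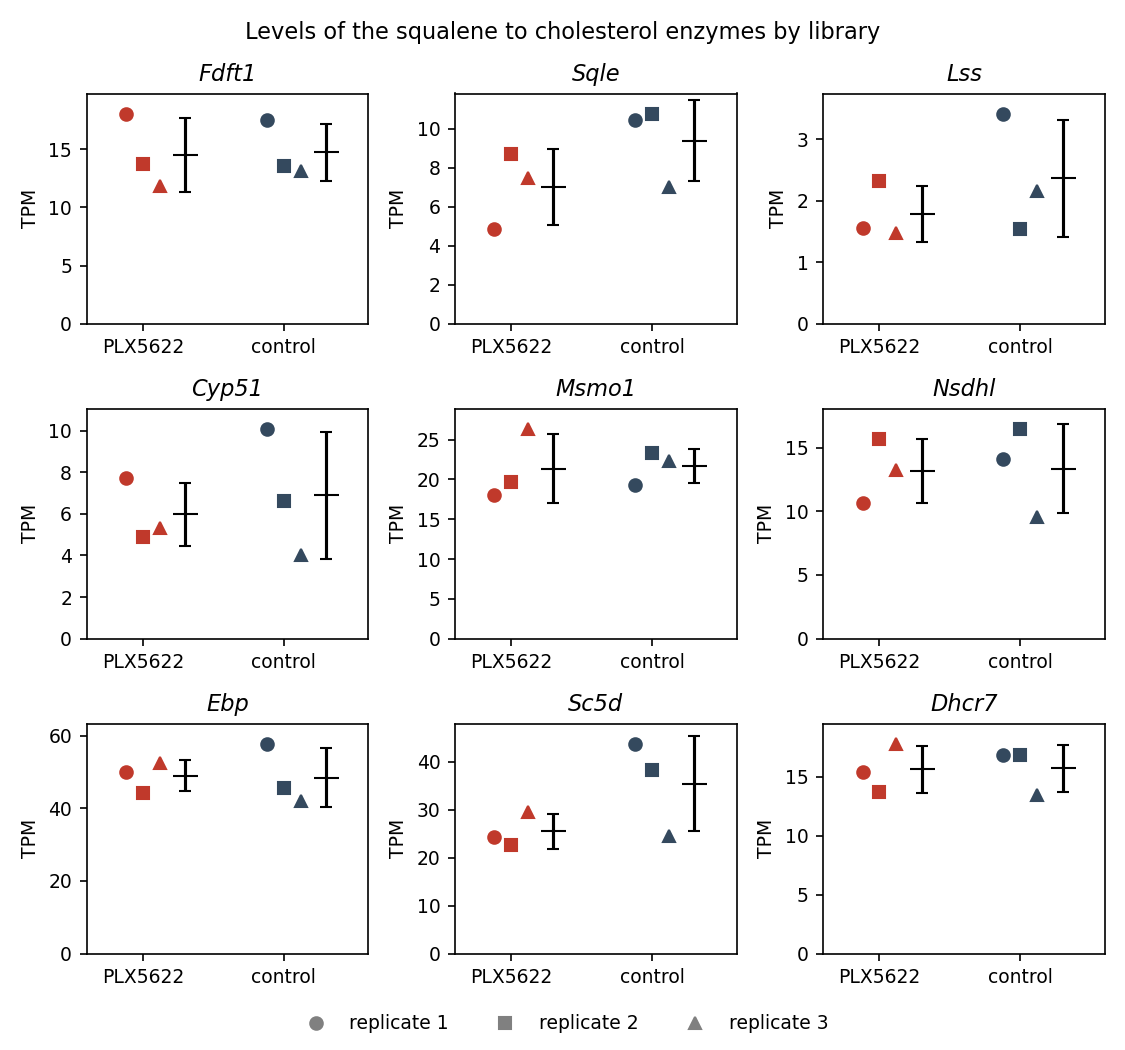
Level of each enzyme in TPM (vertical axis, from 0) in the 3 PLX5622 and the 3 control libraries. Symbols are replicates, and the bars beside them are the mean and SD. The diets overlap in each of the 9 panels, and in Sc5d and Sqle control replicate 3 lies among the PLX5622 libraries.

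The levels spanned 23.5-fold, from a mean over the 6 libraries of 48.7 TPM for Ebp to 2.07 TPM for Lss. Ebp stood first, Sc5d second (30.5 TPM), Msmo1 next (21.5 TPM) and Lss last in each of the 6 libraries. Dhcr7, Fdft1 and Nsdhl, at means of 15.7, 14.6 and 13.3 TPM, changed places between libraries: Dhcr7 was above Fdft1 in 4 of 6 and Fdft1 above Nsdhl in 3 of 6. Sqle (8.20 TPM) was above Cyp51 (6.43 TPM) in 5 of 6. The ranges over libraries lay apart only between the neighbours Msmo1 and Dhcr7 and between Cyp51 and Lss. Among the 13739 tested genes, Ebp lay at percentile 70.1 of the mean level, Sc5d at 57.5, Msmo1 at 47.8 and the other 6 between 8.89 (Lss) and 40.3 (Dhcr7).

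The enzymes that make and close squalene came first in the pathway. Fdft1, squalene synthase, commits farnesyl pyrophosphate to sterols and had 18.0, 13.7 and 11.8 TPM on PLX5622, against 17.6, 13.5 and 13.1 TPM on control. Replicate 1 was the high library of both diets, and the ranges of the diets overlapped almost wholly. The log2 fold change was -0.03 (95% confidence interval -0.49 to 0.43). Sqle, squalene epoxidase, carries out the first oxygen-dependent step and is a known control point of the pathway. It had 4.86, 8.72 and 7.46 TPM on PLX5622, against 10.5, 10.7 and 6.99 TPM on control. Control replicates 1 and 2 lay above all PLX5622 libraries, and control replicate 3 lay below PLX5622 replicates 2 and 3. These values rested on 104, 144 and 147 reads on PLX5622 and on 279, 337 and 97 reads on control. Its log2 fold change was -0.39 (95% confidence interval -0.99 to 0.22), and it was -0.18 without PLX5622 replicate 1, the lowest library. Lss, lanosterol synthase, folds the epoxide into the sterol ring system. It had 1.56, 2.31 and 1.48 TPM on PLX5622, against 3.40, 1.54 and 2.16 TPM on control. Control replicate 1 alone stood out, and the other 5 libraries intermingled. The log2 fold change of Lss was -0.25 (95% confidence interval -0.97 to 0.48) and -0.04 without control replicate 1. It was -0.14 with library weights, -0.15 with the hepatocyte marker level as covariate and -0.11 with a pseudocount of 5 TPM. In the other direction, it was -0.34 with a pseudocount of 0.1 TPM and -0.43 without control replicate 2.

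The demethylating enzymes had log2 fold changes between -0.13 and -0.0016. Cyp51, the P450 that takes the first methyl group off lanosterol, had 7.70, 4.89 and 5.32 TPM on PLX5622, against 10.1, 6.62 and 4.001 TPM on control. The control libraries held both the highest and the lowest value, a 2.51-fold range that was the widest of the 9 enzymes. Its log2 fold change was -0.13 (95% confidence interval -0.88 to 0.62), with a value of 0.15 without control replicate 1 and of -0.42 without control replicate 3. Msmo1, the methylsterol monooxygenase of a later step, had 18.1, 19.6 and 26.3 TPM on PLX5622, against 19.3, 23.4 and 22.3 TPM on control. The PLX5622 libraries enclosed the control range, and the log2 fold change was -0.03 (95% confidence interval -0.43 to 0.36). Nsdhl, an X-linked dehydrogenase that completes the removal of the methyl groups, had 10.7, 15.7 and 13.2 TPM on PLX5622, against 14.1, 16.4 and 9.55 TPM on control. Here the control libraries enclosed the PLX5622 range. The log2 fold change of Nsdhl was -0.0016 (95% confidence interval -0.54 to 0.54).

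The enzymes that move the double bonds held the most abundant members. Ebp, the X-linked sterol isomerase first known as a binding protein of the drug emopamil, had 50.1, 44.2 and 52.5 TPM on PLX5622, against 57.6, 45.5 and 42.1 TPM on control. It was the 1 member with a log2 fold change above 0, at 0.02 (95% confidence interval -0.30 to 0.35), the narrowest interval of the 9. Sc5d, the desaturase that acts after Ebp, had 24.3, 22.6 and 29.6 TPM on PLX5622, against 43.7, 38.4 and 24.5 TPM on control. Control replicates 1 and 2 lay above every PLX5622 library, and control replicate 3 lay between PLX5622 replicates 1 and 3. The means were 25.5 ± 3.63 TPM on PLX5622 and 35.5 ± 9.92 TPM on control (SD, n = 3 each). Its log2 fold change was -0.43 (95% confidence interval -0.94 to 0.08), with a limma adjusted p of 0.99998. It lay at percentile 4.88 of the fold changes of all tested genes and had rank 905 by p among them. Sc5d was counted by 425, 306 and 477 reads in the PLX5622 libraries and by 953, 986 and 278 reads in the control libraries. Without control replicate 3 the value was -0.67, the 1 fit in which a member had an unadjusted p under 0.05 (limma adjusted p = 1.00), and without control replicate 1, the highest, it was -0.27. With the hepatocyte marker level as covariate it was -0.27 as well. Dhcr7, the reductase of the last step in one branch of the pathway, had 15.4, 13.7 and 17.8 TPM on PLX5622, against 16.9, 16.9 and 13.4 TPM on control. The PLX5622 library of replicate 3 was the highest of all and control replicate 3 the lowest, and the log2 fold change was -0.0079 (95% confidence interval -0.39 to 0.37).

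**Figure D2:**
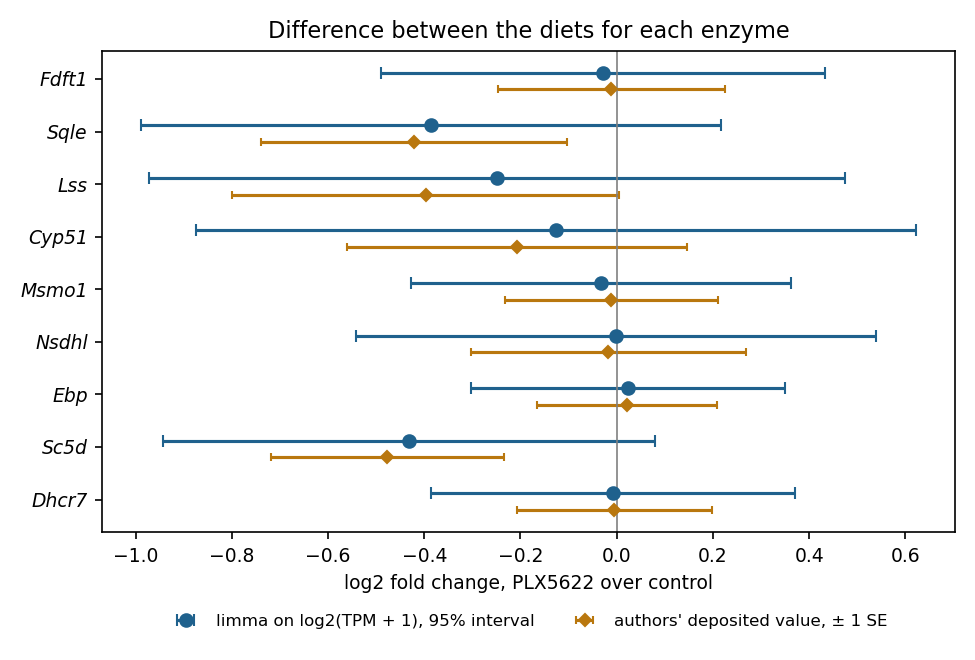
Log2 fold change of PLX5622 over control (horizontal axis) for each enzyme. Circles with bars are the limma values on log2(TPM + 1) with 95% confidence intervals, and diamonds are the authors' deposited DESeq2 values with 1 standard error. All 9 limma intervals include 0, and Sc5d, at -0.43, has the lowest value.

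For 5 of the 9 enzymes, Fdft1, Msmo1, Nsdhl, Ebp and Dhcr7, the 95% confidence interval lay within 1.5-fold in either direction. For Sqle it ran from 0.504-fold to 1.16-fold, for Lss from 0.510-fold to 1.39-fold, for Cyp51 from 0.545-fold to 1.54-fold and for Sc5d from 0.520-fold to 1.06-fold of control. A decrease of 1.5-fold and no difference both lie inside these 4 intervals, and for Cyp51 an increase of 1.5-fold does as well. All intervals are on values with 1 TPM added, which makes them too narrow for weakly expressed genes such as Lss. With a pseudocount of 0.1 TPM the standard error of the Lss log2 fold change was 0.450, against 0.311 as reported. Of the 9 enzymes, 0 in the authors' deposited table pass an adjusted p of 0.05, where 0.0729% of its 15097 genes do. Sc5d has a log2 fold change of -0.48 (SE 0.242) and an unadjusted DESeq2 p of 0.0493 in the authors' deposited table, the 1 member below 0.05, where 1.63% of its genes are below 0.05 and lower. Sqle is at -0.42 (SE 0.318) and Lss at -0.40 (SE 0.403) in the authors' deposited table. The authors' deposited table has 8 of the 9 below 0, as it has 52.4% of its genes. Of the other 6 members in the authors' deposited table, Cyp51 is at -0.21 (SE 0.353) and 5 lie between -0.02 and 0.02. These fold changes rest on the same libraries as the limma values.

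Within the control diet the libraries differed in the same direction for several enzymes. Control replicate 1 was the highest library for 4 of the 9 (Lss, Cyp51, Ebp and Sc5d), and control replicate 3 was the lowest for 4 (Cyp51, Nsdhl, Ebp and Dhcr7). In no enzyme was control replicate 1 the lowest or control replicate 3 the highest. The mean deviation of the 9 from their gene means on the log2(TPM + 1) scale was -0.11, -0.07 and -0.02 in PLX5622 replicates 1 to 3 and 0.29, 0.11 and -0.20 in control replicates 1 to 3. The 3 PLX5622 libraries lay inside the range of the control libraries. Summed over the 9 enzymes the level was 151, 146 and 165 TPM on PLX5622, against 193, 173 and 138 TPM on control, or 154 ± 10.3 TPM on PLX5622 and 168 ± 27.7 TPM on control (SD, n = 3 each). The library with the highest sum, control replicate 1, also had the highest sum of hepatocyte markers, 4867 TPM, of which Alb gave 2368 TPM. Control replicate 3, with the lowest sum, had 2083 TPM of hepatocyte markers and the highest macrophage sum, 234 TPM. The part of RNA from these cells in the levels was not tested. Without control replicate 1 the number of members below 0 was 4 of 9 and their median log2 fold change was 0.04. Without control replicate 3 the number was 9 of 9 and the median was -0.21.

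**Figure D3:**
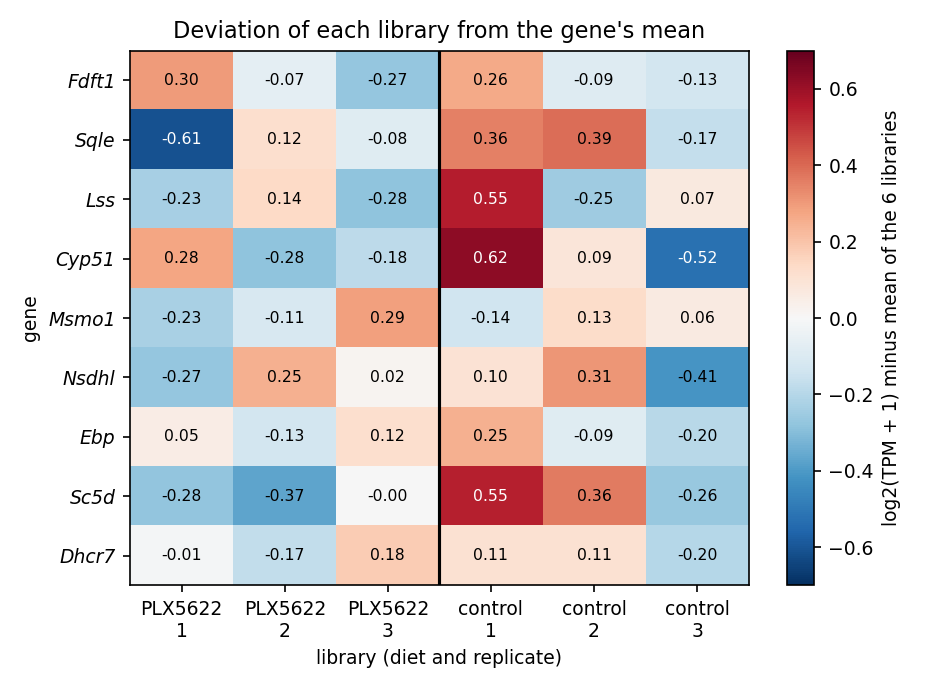
Deviation of each library from the mean of the 6 libraries for each enzyme, on the log2(TPM + 1) scale, with PLX5622 libraries left of the line and control libraries right of it. Control replicate 1 is above 0 in all enzymes except Msmo1, and control replicate 3 is below 0 in all except Lss and Msmo1.

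Other genes were ranked by root mean square distance from the mean profile of the 9 enzymes over the 6 libraries. The nearest to this mean were Elovl1, Col4a3, Slc16a6, Dbi and Itgb1, at distances of 0.03 to 0.05 on the log2 scale. The median over the 13730 other tested genes was 0.26. The distance was taken from the averaged profile, not from single enzymes. Elovl1, a fatty acid elongase, had 85.1, 83.8 and 92.0 TPM on PLX5622, against 110, 95.9 and 78.6 TPM on control. It showed the same order of control libraries as the mean profile of the 9 enzymes, which not every enzyme had. Because it was picked for closeness to that profile, the shared order is no separate result. The likeness is a description over 6 libraries.

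The mevalonate arm, which feeds the enzymes described here, was tested alongside them. Of its 9 genes 8 were tested, Idi1 falling under the filter. Of the 8, 7 had a log2 fold change below 0, where 53.8% of all tested genes did. Their median was -0.17, beside -0.02 over all tested genes. With limma 0 of the 8 passed an adjusted p of 0.05 and 0 an unadjusted one, against 0% and 3.34% of all tested genes. Hmgcs1, which makes the precursor of mevalonate, had 20.8, 19.8 and 21.6 TPM on PLX5622, against 36.3, 26.2 and 21.7 TPM on control, and a log2 fold change of -0.39 (95% confidence interval -0.82 to 0.05). Hmgcs1 and Pmvk were the 2 genes of the arm whose diets did not overlap, each lower on PLX5622, where 4.50% of all tested genes were so. The gaps were narrow: Pmvk had 16.6, 16.9 and 16.6 TPM on PLX5622, against 21.8, 17.7 and 17.1 TPM on control. In the authors' deposited table Hmgcs1 has a log2 fold change of -0.43 (SE 0.217) and an adjusted p of 0.999. Its unadjusted DESeq2 p there is 0.0479, where 1.63% of the genes are below 0.05 and lower. Mvk, mevalonate kinase, was at -0.25 (95% confidence interval -0.59 to 0.09). The summed level of the arm was 158, 155 and 145 TPM on PLX5622, against 217, 174 and 142 TPM on control, with control replicate 1 highest and control replicate 3 lowest, as for the 9 enzymes.

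**Figure D4:**
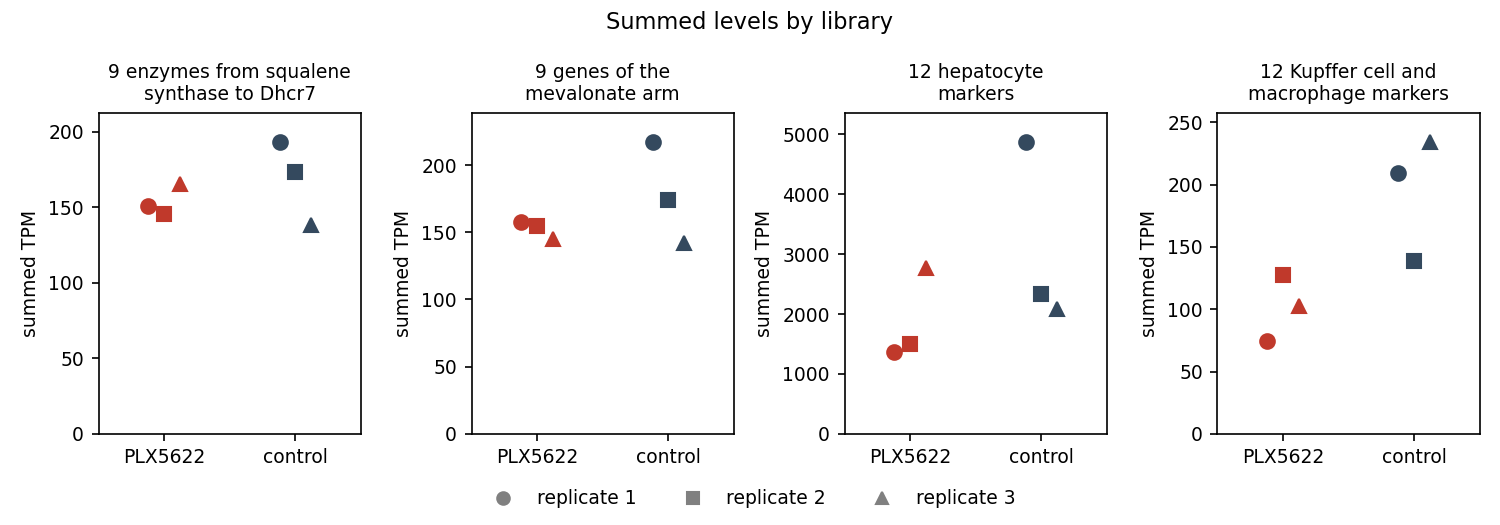
Summed TPM by library (vertical axes from 0) for the 9 enzymes, the 9 genes of the mevalonate arm, 12 hepatocyte markers and 12 Kupffer cell and macrophage markers, with PLX5622 left of control. Control replicate 1 (circle) is the highest library in the first 3 panels, and only the macrophage markers are separated by diet, at 74.7 to 127 TPM on PLX5622 and 138 to 234 TPM on control.

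Of the genes named here that act beside the 9 enzymes, 0 passed an adjusted or an unadjusted p of 0.05 with limma. Over all tested genes the shares were 0% and 3.34%. Tm7sf2, a sterol reductase, averaged 15.5 ± 1.97 TPM on PLX5622 and 17.7 ± 1.15 TPM on control (SD, n = 3 each), with a log2 fold change of -0.19 (95% confidence interval -0.53 to 0.15), and the reductase gene Hsd17b7 was at -0.14 (95% confidence interval -0.78 to 0.51). Electron donors supply the oxygen-dependent steps of Sqle, Cyp51, Msmo1 and Sc5d. Of the 5 electron donor genes, 3 lay below 0, where 53.8% of all tested genes did. Por, the reductase that serves Sqle and Cyp51, had 173, 108 and 101 TPM on PLX5622, against 128, 111 and 106 TPM on control, with a log2 fold change of 0.11 (95% confidence interval -0.35 to 0.57) that was -0.13 without PLX5622 replicate 1. The cytochrome b5 reductase genes Cyb5r1 and Cyb5r3 were at -0.24 (95% confidence interval -0.53 to 0.06) and -0.11 (95% confidence interval -0.32 to 0.10). Among partners of the enzymes, 1 of 5 genes lay below 0, against the same 53.8%. Marchf6, the ubiquitin ligase that marks squalene epoxidase for degradation, was at 0.08 (95% confidence interval -0.15 to 0.31), and Erg28, a scaffold of the demethylating enzymes in yeast, at 0.12 (95% confidence interval -0.29 to 0.54).

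Srebf2, the gene of SREBP2, had 51.7, 51.0 and 50.6 TPM on PLX5622, against 65.6, 50.3 and 43.2 TPM on control. Its control libraries enclosed the PLX5622 libraries, with replicate 1 highest and replicate 3 lowest once more. The log2 fold change of Srebf2 was -0.03 (95% confidence interval -0.39 to 0.32), with a value of 0.13 without control replicate 1. Insig1, which holds the SREBP complex in the endoplasmic reticulum, was at -0.04 (95% confidence interval -0.37 to 0.29) and its relative Insig2 at -0.14 (95% confidence interval -0.42 to 0.13).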

How the data were processed

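Per the submitters' processing notes, the tools of the authors were STAR (2.7.10a), Subread (2.0.1) and its featureCounts, DESeq2 (1.32.0) and R 4.1.0, and the build was mm39. For annotation and settings, nothing is stated by these notes. Expression as deposited by the authors is in TPM, 1 column per library, each column summing to the same total. The authors' deposited DESeq2 table gives mean normalized counts (a depth-scaled signal), log2 fold changes, standard errors and Wald statistics (both scores), p-values and adjusted p-values for 15097 genes, copied as deposited; its direction was checked against the TPM.

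After adding 1 to each TPM and taking log2, genes averaging 1 TPM or more were tested by limma (3.58.1, R 4.3.3) (intensity trend, two-sided, Benjamini-Hochberg adjustment over 13739 genes, threshold 0.05); figures and tables were made in Python 3.11.15. This step and the read recovery were tested on simulated data. Intervals are 95% intervals of the fit. Reads per gene were worked out from the TPM and the deposited mean normalized counts; 100% of values under 50 reads came within 0.05 of a whole number. Errors worked out from these reads are for counting only and are a lower bound, since PCR copies are not independent molecules. Without strand, reads of genes that overlap on opposite strands cannot be told apart. No replicates agreed within sampling noise (chi-square per degree of freedom at least 15.6).

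Members, gene lists and tests were chosen with earlier results of these data known. All 9 members were named; of each pathway list, the members with an unadjusted p under 0.05 or otherwise the 2 with the smallest p; always Srebf2, Insig1, Por, Alb, Pecam1 and Csf1r; and the 5 most similar profiles. Some genes that this rule names are not reported here. Pmvk, Idi1, the red cell markers and the bile duct markers were named after their values were seen. Alternatives changed the pseudocount, filter, scaling, limma settings, unit, covariates and libraries. Marker lists of stellate cells, bile duct cells, lymphocytes, red cells and platelets had medians of 0.07, 0.07, -0.23, 0.16 and 0.22 on the log2 fold change scale over 7, 3, 1, 1 and 4 tested genes.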

Additional observations from a re-analysis of the deposited data

How the results depend on the processing

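limma called 0 of the 9 enzymes, and 0 genes in all, at an adjusted p under 0.05 under each of the 12 alternatives with all libraries and each of the 6 fits without a library. As reported, 459 genes were at an unadjusted p under 0.05, and between 304 and 847 were under the alternatives. The median log2 fold change of the enzymes, -0.03 as reported, was between -0.10 (voom on recovered reads) and 0.035 (library weights), and between -0.21 and 0.04 without single libraries. Sc5d stayed between -0.49 and -0.27 and Sqle between -0.53 and -0.26 with all libraries, and between -0.67 and -0.27 and between -0.56 and -0.18 without single libraries; Lss stayed below 0 in every fit except that with a filter at 5 TPM, which left it out.

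Values near 0 changed sign. Quantile normalization gave 0.0032 for Nsdhl and -0.044 for Pecam1. Median-of-ratios scaling gave 0.0097 for Nsdhl and 0.0035 for Dhcr7. Library weights gave 0.035 for Fdft1, 0.048 for Cyp51, 0.060 for Nsdhl, 0.035 for Dhcr7 and 0.067 for Srebf2. A hepatocyte marker level as covariate gave 0.018 for Msmo1, 0.060 for Nsdhl, 0.072 for Dhcr7, 0.063 for Srebf2 and 0.053 for Insig1, with Sc5d and Sqle both at -0.27. Without single libraries Fdft1 ranged over -0.18 to 0.10, Cyp51 over -0.42 to 0.15, Msmo1 over -0.19 to 0.072, Nsdhl over -0.21 to 0.15, Ebp over -0.068 to 0.15, Dhcr7 over -0.11 to 0.077, Hsd17b7 over -0.29 to 0.046, Erg28 over -0.069 to 0.23, Srebf2 over -0.17 to 0.13, Insig1 over -0.16 to 0.065, Por over -0.13 to 0.25 and Pecam1 over -0.040 to 0.16. The cause of these changes was not tested.

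With the replicate number as a block, limma called 0 genes, the smallest adjusted p was 0.378, and 821 genes had an unadjusted p under 0.05. Same-numbered libraries correlated at 0.196, 0.136 and 0.0873 in their deviations across genes, and each library correlated best with its own number, a hint from the data and not from the labels. Depth limits Lss and Sqle most, at 621 and 1108 reads over the 6 libraries.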

Other observations

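Ebp, the sterol isomerase, gave 33.3%, 30.4% and 31.7% of their summed TPM on PLX5622, against 29.8%, 26.3% and 30.5% on control. Sc5d, the desaturase that follows it, gave 16.1%, 15.6% and 17.9% on PLX5622, against 22.6%, 22.2% and 17.7% on control, so control replicate 3 lay between PLX5622 replicates 2 and 3. Sqle gave 3.23%, 5.99% and 4.51% on PLX5622, against 5.42%, 6.21% and 5.06% on control. These shares were chosen for description after the values were seen and were not tested.

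Sqle, Cyp51, Msmo1 and Sc5d use molecular oxygen, and the other 5 enzymes do not. The 4 oxygen-dependent enzymes summed to 54.9, 55.9 and 68.7 TPM on PLX5622, against 83.4, 79.1 and 57.8 TPM on control. The other 5 summed to 95.8, 89.6 and 96.7 TPM on PLX5622, against 109, 93.9 and 80.4 TPM on control. Control replicate 3 lay inside the PLX5622 range in the first sum and below it in the second. This split was made with the values in view, and Sc5d contributes most to its first part.

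The coefficient of variation between libraries was lower on PLX5622 than on control in 5 of the 9 enzymes, beside 56.7% of all tested genes. Its median over the 9 was 20.4% on PLX5622 and 22.2% on control, and over all tested genes it was 13.4% on PLX5622 and 15.7% on control. Cyp51 had 25.4% on PLX5622 and 44.1% on control, and Msmo1 had 20.4% on PLX5622 and 9.87% on control.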
